A study of Rattus norvegicus with 3 samples.

Results

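The expression of 10 genes of the Wnt pathway was followed in single cells of the postnatal rat cochlea. Of these, 7 encode secreted or membrane antagonists (Wif1, Sfrp1, Sfrp2, Sfrp4, Frzb, Apcdd1 and Dkk2) and 3 are genes commonly read as targets of Wnt signalling (Sp5, Axin2 and Lgr5). The genes were chosen by name, with earlier results of these data known, and all 10 were found among the 32623 genes of the matrices. Their Ensembl identifiers there are ENSRNOG00000004476 (Wif1), ENSRNOG00000017783 (Sfrp1), ENSRNOG00000009465 (Sfrp2), ENSRNOG00000054957 (Sfrp4), ENSRNOG00000007765 (Frzb), ENSRNOG00000043304 (Apcdd1), ENSRNOG00000011360 (Dkk2), ENSRNOG00000054086 (Sp5), ENSRNOG00000055010 (Axin2) and ENSRNOG00000004221 (Lgr5). The cochlear duct of untreated Sprague-Dawley rats was sampled on 3 postnatal days, P1, P7 and P14 (named for the day of age), each stage being a pool of rats of either sex from which 1 10x Genomics Chromium library was made. The study asked about the greater epithelial ridge, a transient epithelium beside the hair cells, and its subsets with age. Barcodes with more than 500 and fewer than 5000 genes and under 25% of UMIs (unique molecular identifiers, each counting 1 captured transcript) on Mt- genes were kept, which left 12779 cells at P1, 12581 at P7 and 5281 at P14.

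Levels are given in CPM, the UMIs of a gene as a proportion of all UMIs of the same cells, scaled as usual for this unit. Median depth was 6565 UMIs per cell at P1, 6878 at P7 and 1614 at P14, so values at P14 are the least precise. Each stage is a single library, so no replicate error and no test between stages can be given. A difference of stage cannot be told apart from one of library. Values in parentheses are exact 95% intervals of the counts and cover counting error only. Over a whole library, fewer cells of a type and less RNA per cell cannot be told apart. The labels name the cells as greater epithelial ridge cells, but of 30641 cells only 549 lay in the cluster with cochlear epithelial markers, where all 13 markers of that list were found. The libraries were therefore read as mixed cochlear tissue.

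Wnt ligands bind Frizzled receptors and Lrp5 or Lrp6 at the cell surface and, in the canonical branch, stabilise beta-catenin, which acts in the nucleus with TCF and LEF factors. Wif1 and the secreted Frizzled-related proteins Sfrp1, Sfrp2, Sfrp4 and Frzb bind Wnt ligands outside the cell, Dkk proteins bind the Lrp co-receptors, and Apcdd1 is a membrane glycoprotein that inhibits the pathway. Axin2, a scaffold of the beta-catenin destruction complex, and Sp5, a zinc finger transcription factor, are both induced by the pathway and limit it. Lgr5 is a receptor for R-spondins, and in the neonatal cochlea it is known from supporting cells that can give rise to hair cells. Apcdd1 is itself a Wnt target in several tissues, and it was also counted as a target in an alternative.

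The bases before the start of the target genes are shown because the factors that relay Wnt signals bind there in many target genes. RefSeq promoter sequences of the build GRCr8 were at hand for 6 of the 10 genes (Wif1, Sfrp2, Frzb, Apcdd1, Sp5 and Axin2). The 250 bases before the annotated start were searched on both strands for the TCF and LEF letters CTTTGNN, where each N is A or T, which cannot overlap each other on 1 strand. Sp5 (chr3:75682427-75682676, plus strand) and Axin2 (chr10:94398535-94398784, plus strand) each held 2 matches, and Wif1 (chr7:58433329-58433578, plus strand), the antagonist most abundant in the same cluster as Sp5, held 0. Sequences are written 5′ to 3′ with matches in capitals.
Sp5: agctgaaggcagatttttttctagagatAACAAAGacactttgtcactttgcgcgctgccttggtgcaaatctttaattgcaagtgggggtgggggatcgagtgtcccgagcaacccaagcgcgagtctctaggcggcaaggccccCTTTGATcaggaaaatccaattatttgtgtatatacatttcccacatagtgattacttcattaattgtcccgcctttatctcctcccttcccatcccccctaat
Axin2: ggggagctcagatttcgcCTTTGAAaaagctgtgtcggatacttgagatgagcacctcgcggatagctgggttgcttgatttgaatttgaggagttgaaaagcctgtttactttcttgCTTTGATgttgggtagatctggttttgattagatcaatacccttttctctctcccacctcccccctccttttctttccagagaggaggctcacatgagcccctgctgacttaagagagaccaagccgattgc
Wif1: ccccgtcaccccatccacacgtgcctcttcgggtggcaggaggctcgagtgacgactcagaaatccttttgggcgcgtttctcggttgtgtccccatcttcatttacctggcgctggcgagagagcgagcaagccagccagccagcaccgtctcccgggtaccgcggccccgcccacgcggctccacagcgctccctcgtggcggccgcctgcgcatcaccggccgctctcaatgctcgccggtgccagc
In Sp5 the matches lay 222 to 216 bases and 104 to 98 bases before the start, the first of them on the opposite strand. In Axin2 they lay 232 to 226 bases and 132 to 126 bases before the start. Of 33469 promoters of this length, 14.9% held at least 1 match and 1.73% held 2 or more. Sfrp2, Frzb and Apcdd1 held 0 in the same window.

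Across the libraries the summed antagonists and the summed targets took different courses. Summed over the 7 antagonists, the level was 442 CPM (438 to 446) at P1, 504 CPM (499 to 508) at P7 and 369 CPM (358 to 381) at P14. The 3 targets summed to 88.4 CPM (86.6 to 90.3), 43.1 CPM (41.8 to 44.4) and 40.0 CPM (36.5 to 43.8). From P1 to P7 the summed antagonists were therefore higher by 0.19 (0.17 to 0.21) on the log2 scale, while the summed targets were lower, at -1.04 (-1.09 to -0.98). From P7 to P14 the log2 ratio was -0.45 (-0.49 to -0.40) for antagonists and -0.11 (-0.25 to 0.03) for targets, the latter within counting error. Neither sum stands for its class. Sfrp1 alone was at 233 CPM at P1. It, Apcdd1 and Dkk2 were lower at P7, and Wif1, Sfrp2, Sfrp4 and Frzb higher. Sp5 went from 40.7 to 9.60 CPM, Axin2 was lower by less and Lgr5 was higher. Of 7 other measured genes used as targets, 0 were lower and 1 was higher at P7 by the 2-fold rule given below.

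Single genes were followed by the same measure. Sfrp1 was at 233 CPM (230 to 236) at P1, 161 CPM (158 to 164) at P7 and 42.1 CPM (38.4 to 46.0) at P14, a lower level at each later stage. Sfrp4 went the other way, from 10.6 CPM (9.96 to 11.3) to 70.0 CPM (68.4 to 71.8) and 82.6 CPM (77.5 to 88.0). Frzb, which binds Wnt ligands like the other Sfrp proteins and is known from cartilage, was at 44.3, 98.3 and 105 CPM. Intervals did not overlap between P1 and P7 for these 3 genes, nor for any other of the 10 genes, Apcdd1 with a log2 ratio of -0.17 included. The share of all genes without overlap was not computed, so the lack of overlap cannot be read as particular to these genes.

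Wif1 was at 47.4, 64.2 and 46.5 CPM and Sfrp2 at 44.6, 57.4 and 16.2 CPM, both highest at P7. Apcdd1 stayed between 51.0 and 67.9 CPM. Dkk2 was low in each library, at 4.42, 1.87 and 9.02 CPM. Among the targets, Sp5 was at 40.7 CPM at P1, 9.60 CPM at P7 and 7.30 CPM at P14, which is 4.24-fold lower at P7 than at P1 (log2 ratio -2.08, -2.19 to -1.98). Axin2 was at 46.1, 30.7 and 32.3 CPM, a smaller difference between P1 and P7 (log2 ratio -0.59, -0.66 to -0.52). Lgr5 had 163, 263 and 5 UMIs, or 1.66, 2.83 and 0.430 CPM, so its course rests on few counts at P14.

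**Figure D1:**
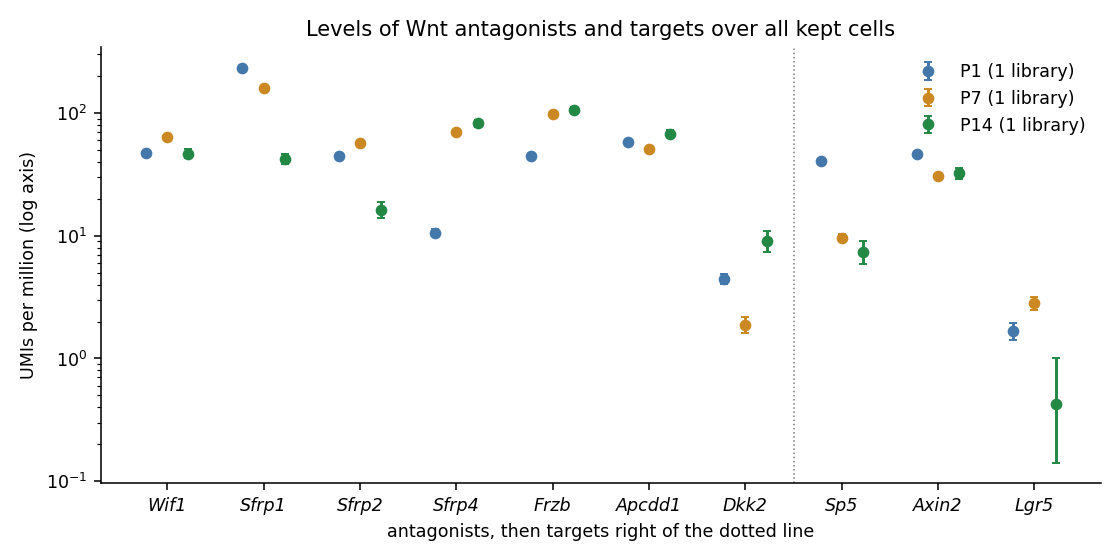
CPM of each of the 10 genes (log axis) over all kept cells of the P1, P7 and P14 libraries, with exact 95% counting intervals as bars. Sfrp1 and Sp5 were lower and Sfrp4 and Frzb higher at P7 than at P1, and Lgr5 had 5 UMIs at P14.

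These differences were set against those of all genes with at least 10 CPM in either stage. A difference was called at 2-fold or more after 10 CPM was added to both levels. Between P1 and P7, 1 of the 8 genes measured at that level was called lower (Sp5), where 2.02% of 8222 genes were lower, and 1 was called higher (Sfrp4), where 3.2% were higher. Frzb was just short of the limit, at a log2 ratio of 0.996 with 10 CPM added. Between P7 and P14, 2 of 7 genes were called lower (Sfrp1 and Sfrp2), against 4.62% of 9048 genes, and 0 higher, against 11.3%. Lgr5 and Dkk2 stayed under 10 CPM in each library and were not counted. Sp5, at 9.60 CPM at P7 and 7.30 CPM at P14, was not counted between these stages either. The median of all these genes was itself shifted, by 0.10 from P1 to P7 and by 0.13 from P7 to P14 on the log2 scale. With median-of-ratios size factors the P14 to P7 split of all called genes moved from 1025 higher and 418 lower to 560 higher and 963 lower (990 and 648 without Mt-, ribosomal protein and globin UMIs in the total), and the P14 to P7 ratios of Sfrp4 (0.24), Frzb (0.09) and Axin2 (0.08) turned to -0.17, -0.32 and -0.34. Without those UMIs the P7 to P1 split moved from 263 higher and 166 lower to 281 and 284. The numbers of the 10 genes called were the same under both scalings. Without Mt-, ribosomal protein and globin UMIs the P14 to P7 ratios of Frzb and Axin2 also turned, to -0.04 and -0.06, and with a mitochondrial limit of 10% that of Axin2 was -0.04.

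Cells were then grouped to see where each gene was expressed. The 10 genes and the other listed Wnt genes were left out of the clustering, so their levels did not help to form the 27 clusters. Named from marker genes were 8 mesenchyme-like clusters (from the mesenchyme, cartilage and osteoblast lists as 1 class), 3 glia-like, 2 B cell-like and 1 each that was endothelial-like, macrophage-like, pericyte and smooth muscle-like, cochlear epithelium-like, neuron-like and hair cell-like. The lists for neutrophils, T and NK cells, erythroid cells, melanocytes and strial marginal cells named none. Left unnamed were 8 clusters, among them cluster 15, in which 86.5% of cells were called doublets, and clusters 4, 7 and 20, on which the targets turn. Clusters are called by their number, most with their 3 leading genes. The order of levels below is over the 26 clusters of 50 or more cells, with stages pooled.

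Sfrp1 was highest in the cochlear epithelium-like and glia-like cells. It was at 1454 CPM (1418 to 1490) in the cochlear epithelium-like cluster 17 (Epcam, Epyc, Mia), which held 2.16% of all UMIs and 16.6% of the Sfrp1 UMIs. Next came cluster 8 (Pcsk1, Gas7, Ptprz1) at 843 CPM, an unnamed cluster in which 8 of 9 glial markers were found. The glia-like clusters 11 (Ube2c, Cenpw, Cdk1), led by cell division genes, and 1 followed at 606 and 557 CPM, and the intervals of these first 4 were apart. In macrophage-like cells, used here as a background, Sfrp1 was at 37.8 CPM.

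The level of Sfrp1 also differed by stage inside its main sources. In the cochlear epithelium-like cells it was 1927 CPM (1871 to 1984) at P1, 959 CPM (914 to 1005) at P7 and 448 CPM (362 to 548) at P14. In cluster 1 it was 1098 CPM (1048 to 1150) at P1 and 489 CPM at P7 (log2 ratio -1.17), and in cluster 11 809 CPM (778 to 840) and 514 CPM (497 to 531). The glia-like cells of P14 lay in another cluster, with 392 of 408 in cluster 18, where Sfrp1 was at 85.4 CPM (68.5 to 105). When each cell was thinned to 1000 UMIs, a Sfrp1 UMI was found in 73.7% (68.1 to 78.8) of the epithelium-like cells at P1, 50.5% (43.2 to 57.8) at P7 and 24.0% (13.1 to 38.2) at P14, against 92.8%, 79.7% and 35.8% before thinning. Median depths were 7531, 6811 and 3933 UMIs. In macrophage-like cells, with median depths of 7591, 6888 and 2807 UMIs, the thinned shares were 2.79%, 3.47% and 1.24% and those before thinning 10.6%, 18.3% and 4.05%. The lower level at P7 was thus seen in the cells with most Sfrp1. Thinning left out 37 cells at P1, 193 at P7 and 735 at P14.

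Frzb and Sfrp4 were highest in mesenchyme-like clusters of the later stages. The highest Frzb levels were 308 CPM (288 to 328) for cluster 6 (Coch, LOC100911545, Otos) and 298 CPM (289 to 308) for cluster 5 (Ramp3, Dcn, Gpc3), which did not differ beyond counting error, followed by cluster 12 (Gcg, Car3, Cnmd), led by the cartilage list, at 149 CPM. Sfrp4 reached 252 CPM (235 to 270) in the same cluster 6, while cluster 3 (Dlx5, Sfrp4, Gdf10) followed with 219 CPM (213 to 227) and held 45.1% of the Sfrp4 UMIs. Cluster 6 came almost wholly from P14, with 1758 of its 1773 cells, and clusters 5 and 3 from P7, with 1805 of 1852 and 2170 of 2319 cells. Frzb was not confined to these stages. It was at 108 CPM in cluster 2, with 2357 of its 2669 cells from P1. In cluster 12 it was at 131 CPM at P1 and 152 CPM at P7, which did not differ beyond counting error. A cluster drawn mostly from 1 library may be that library as well as a kind of cell.

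Sfrp2 was highest in cluster 12 at 163 CPM (154 to 171) and reached 117 CPM in cluster 20 (Clec3b, Gpcpd1, Rarres1). It was at 109 CPM in cluster 4 (Aldh1a2, Calb2, Kcnk2), which was not separated from cluster 20 by its interval. For Wif1 the highest level, 146 CPM (140 to 153), was that of cluster 7 (Sp5, Cav1, Ccn3). Cluster 0 (Isyna1, Crym, Col9a3) followed with 136 CPM (132 to 141), then cluster 3 with 134 and cluster 6 with 127 CPM. Neighbours in this pooled order overlapped, but within a stage they did not all do so. At P7 Wif1 was at 427, 281 and 141 CPM for clusters 7, 0 and 3, with intervals apart, and at P1 at 107, 101 and 27.5 CPM, with the last apart. Apcdd1 was likewise shared, with 131 CPM for cluster 0, 130 for cluster 20, 129 for the endothelial-like cluster 9 and 121 for cluster 23 (Slco1a4, Abcb4, Sox17), and their pooled intervals overlapped.

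Dkk2 was highest in endothelial-like cells, mainly through P14. In cluster 9 (Plvap, Cldn5, Adgrf5) it had 10 UMIs at P1, 3 at P7 and 96 at P14, or 5.54 CPM (2.66 to 10.2), 1.97 CPM (0.406 to 5.75) and 70.0 CPM (56.7 to 85.4). In cells thinned to 1000 UMIs a Dkk2 UMI was found in 5.92% (4.11 to 8.22) of the 557 endothelial-like cells of P14, in 0 of 163 at P1, which allows a share of up to 1.84%, and in 0 of 174 at P7, which allows up to 1.72%. These limits are for cells with a UMI among 1000, not for cells expressing Dkk2. Before thinning the shares were 5.91%, 3.03% and 0.556%, at median depths of 1115, 9076 and 6885 UMIs, and 0.289% of the macrophage-like cells of P14 held one at a median of 2807 UMIs. At P1 most Dkk2 lay in the mesenchyme-like cluster 2 (Plagl1, Col6a1, Tac1), with 267 of 433 UMIs and a level of 15.4 CPM (13.6 to 17.4).

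The targets Sp5 and Axin2 were high together in 3 clusters. Sp5 reached 194 CPM (186 to 201) in cluster 7, which held 6.66% of all UMIs and 52.7% of the Sp5 UMIs. Cluster 20 followed with 47.8 CPM (34.5 to 64.6) and cluster 4 with 47.2 CPM (44.0 to 50.6), not separated from each other. The order for Axin2 was cluster 20 with 206 CPM (177 to 238), cluster 7 with 136 (130 to 143), cluster 4 with 97.9 (93.3 to 103) and cluster 0 with 48.5 CPM. The intervals of these 4 were apart. Sp5 and Axin2 thus shared their 3 leading clusters but not the first of them. A link of these levels to the matches in their promoters was not tested.

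These 3 clusters had no name from the marker lists. Of the 12 mesenchyme markers, 9 were found in cluster 4, 8 in cluster 7 and 10 in cluster 20, but the lead of that list was too small or another list led. Clusters 7 and 4 belonged to the earlier stages, with 1462 P1 and 222 P7 cells in cluster 7 and 1037 and 1044 in cluster 4, while 313 of the 315 cells of cluster 20 came from P14. In thinned cells of cluster 7, a Sp5 UMI was found in 16.9% (15.0 to 19.0) at P1 and 6.33% (3.51 to 10.4) at P7, and an Axin2 UMI in 12.1% (10.4 to 13.8) and 15.4% (10.9 to 20.8). Before thinning these shares were 63.1%, 44.6%, 55.3% and 63.5%, at median depths of 6987 and 7075 UMIs. In macrophage-like cells the thinned shares over all stages were 0.444% for Sp5 and 0.889% for Axin2, and 2.00% and 5.99% before thinning, at a median of 5382 UMIs. Within cluster 7 at P1, 10.1% of the thinned cells with a Sp5 UMI also had an Axin2 UMI, against 12.5% of those without. At P7 it was 28.6% of 14 cells against 14.5%. In cluster 4 the shares were 4.88% of 41 cells against 8.26% at P1 and 26.9% of 52 against 9.29% at P7, and in cluster 0 at P1 14.5% of 55 against 4.29%. In cluster 20 at P14 it was 33.3% of 9 cells against 17.4%, and in cluster 0 at P7 0 of 6 cells against 4.56%. The direction thus differed between clusters and stages, on at most 25 cells with both.

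Lgr5 was highest in glia-like cells and in an unnamed cluster with glial and neuronal markers. Glia-like cluster 1 had 10.4 CPM (8.83 to 12.2), cluster 19 (Nefh, Pcsk1, Pnlip) 10.3 CPM (6.66 to 15.2) and glia-like cluster 11 8.29 CPM (6.63 to 10.2), which did not differ beyond counting error. Cluster 1 held 36.2% of the Lgr5 UMIs. In cochlear epithelium-like cells it had 1 UMI at P1, 3 at P7 and 2 at P14, or 0.426 CPM (0.0108 to 2.37), 1.65 CPM (0.341 to 4.83) and 9.53 CPM (1.15 to 34.4). Lgr5 was therefore barely detected in the epithelium. Over all stages it was at 1.37 CPM (0.503 to 2.99) there and at 9.23 CPM (8.11 to 10.5) in glia-like cells. Median depth was 6588 UMIs in cluster 17 and 4697 UMIs in cluster 1.

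**Figure D2:**
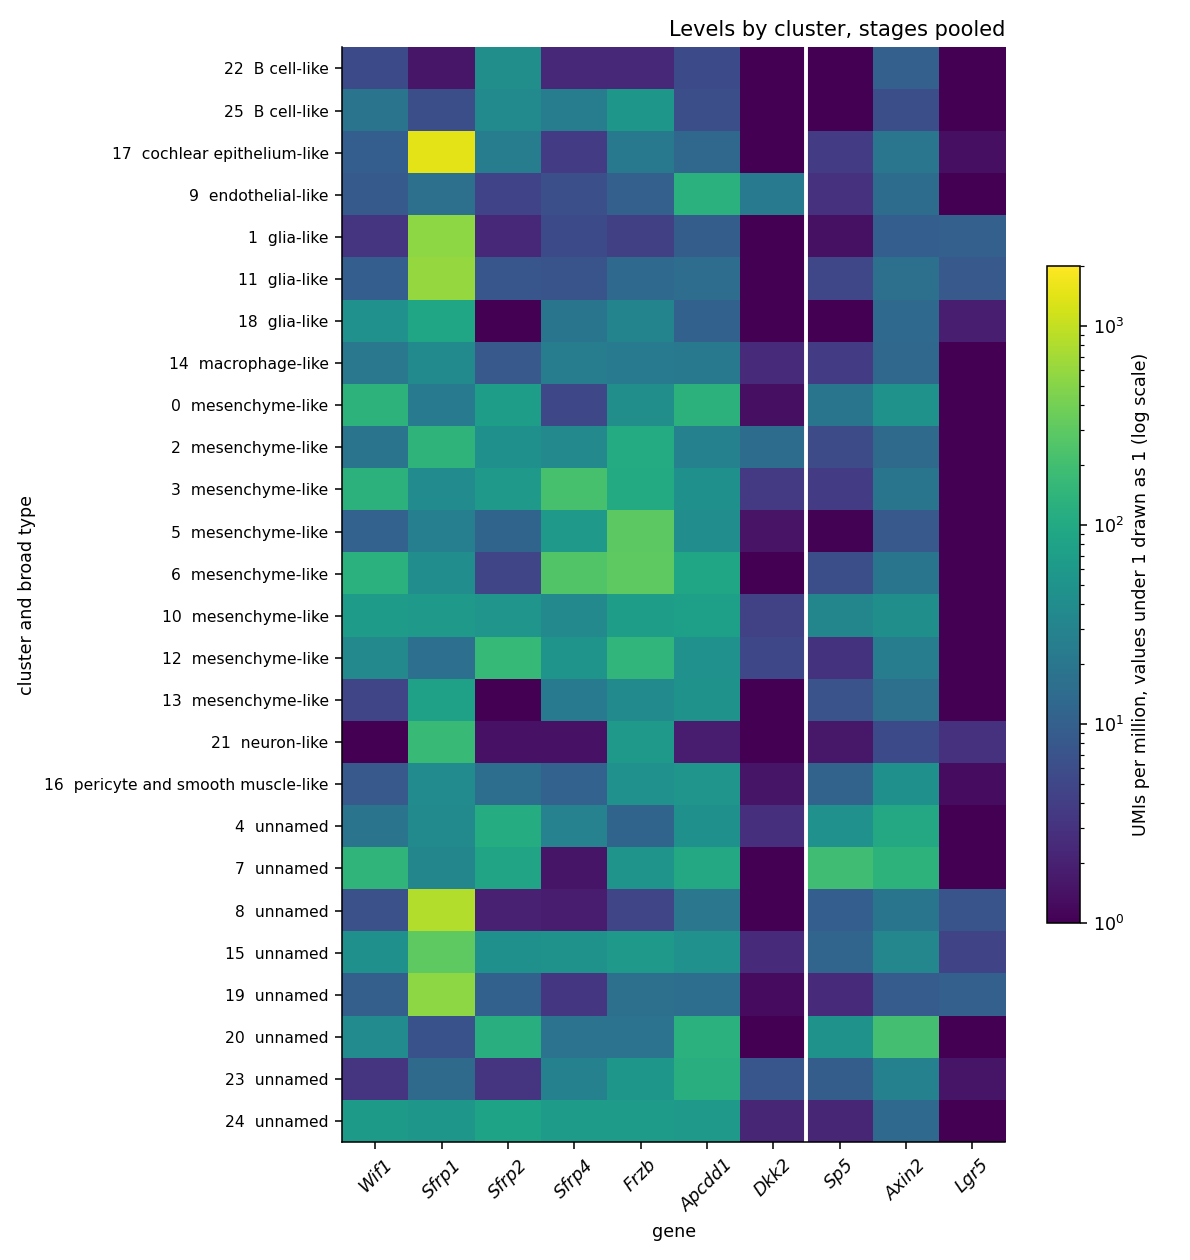
Levels of the 10 genes (columns) in CPM on a log colour scale in the 26 clusters of 50 or more cells (rows, with broad type), stages pooled and values under 1 drawn as 1. Sfrp1 is brightest in the cochlear epithelium-like cluster 17 at 1454 CPM, and Sp5 and Axin2 are bright together in clusters 4, 7 and 20.

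Antagonists and targets were then summed in each cluster. Summed antagonists ranged from 60.1 CPM in B cell-like cluster 22 to 1526 CPM in the cochlear epithelium-like cluster 17, and summed targets from 6.16 CPM in cluster 25 to 330 CPM in cluster 7. The ratio of the sums was 60.7 in cluster 17 and 45.5 in cluster 5, and lowest in clusters 7 (1.26), 20 (1.30) and 4 (1.74), followed by the pericyte and smooth muscle-like cluster 16 (3.03). Cluster 7 combined the highest targets with 416 CPM of antagonists, a level near that of clusters 0, 2, 5 and 12, which lay between 391 and 466 CPM. In the 21 hair cell-like cells of P1, too few for this order, 59 antagonist UMIs (52 of them Sfrp1) and 1 target UMI (Axin2) were counted. The ratio compares clusters and not genes, since the capture of each transcript is not known.

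**Figure D3:**
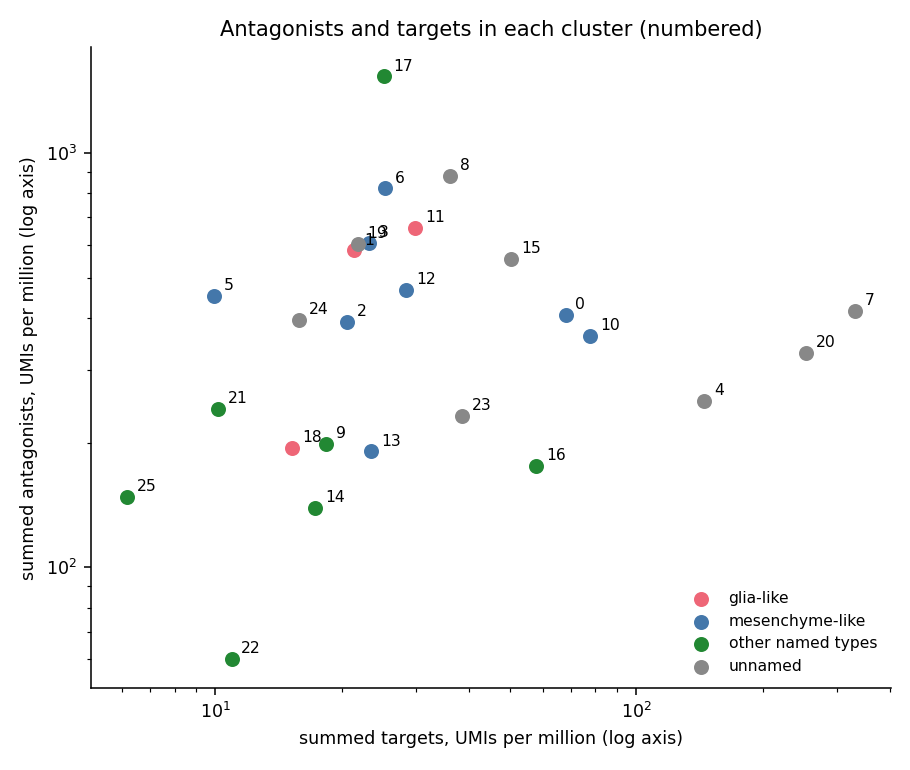
Summed targets (x axis) and summed antagonists (y axis) in CPM, both on log axes, with 1 numbered point for each of the 26 clusters of 50 or more cells, coloured by broad type. Clusters 4, 7 and 20 stand to the right with targets of 145 to 330 CPM, and cluster 17 stands on top with antagonists of 1526 CPM.

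By named broad type, with the unnamed clusters left out, 5 of the 10 genes were highest in mesenchyme-like cells (Frzb, Sfrp2, Sfrp4, Sp5 and Wif1), 2 in endothelial-like cells (Apcdd1 and Dkk2), and 1 each in pericyte and smooth muscle-like (Axin2), glia-like (Lgr5) and cochlear epithelium-like cells (Sfrp1). Sp5 was at 11.4 CPM (10.7 to 12.0) in mesenchyme-like and 11.3 CPM (8.23 to 15.2) in pericyte and smooth muscle-like cells, which did not differ beyond counting error. The unnamed clusters together were higher for Sp5 (73.4 CPM), Axin2 (83.6 CPM) and Sfrp2 (72.0 CPM). The count of 5 was 3 when the Wnt genes took part in the clustering and 2 with a mitochondrial limit of 10%. The share of all genes highest in each type was not computed, so these counts have no background. Summed antagonists in mesenchyme-like cells were 368 CPM at P1, 523 CPM at P7 and 633 CPM at P14, and summed targets 53.4 CPM at P1 and 27.0 CPM at P7, with 111 UMIs at P14. The P7 to P1 log2 ratios were 0.51 (0.48 to 0.54) and -0.98 (-1.08 to -0.89), and the P14 to P7 ratios 0.27 (0.22 to 0.33) and -0.11 (-0.40 to 0.17). The P14 to P7 ratios of these sums were not recomputed under other scalings. At P14 the median-of-ratios size factors differ from the UMI totals by 0.39 on the log2 scale, more than the 0.27 of the antagonists. The direction of the antagonists from P7 to P14 in this class is therefore not settled.

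Different clusters made up the mesenchyme-like class at each stage, mainly clusters 0, 2 and 10 at P1, clusters 3, 5, 12 and 0 at P7 and clusters 6 and 13 at P14. From P1 to P7 in this class, Sfrp1 was called lower, from 89.8 to 15.7 CPM, where 1.56% of 7906 genes were lower, and Sfrp4 (17.1 to 114 CPM) and Frzb (69.5 to 160 CPM) were called higher, where 3.33% were higher. From P7 to P14, Sfrp2 was called lower, from 70.9 to 3.38 CPM, where 7.49% of 8519 genes were lower, and Sfrp1 was called higher, from 15.7 to 51.1 CPM, where 10.3% were higher. The median of all genes was shifted by 0.11 and 0.04 on the log2 scale. The call of Sfrp1 at P14 was lost with median-of-ratios size factors, under which 481 genes were higher and 1194 lower in place of 880 and 638 (762 and 983 without Mt-, ribosomal protein and globin UMIs). From P1 to P7 the split was 263 higher and 123 lower, and 291 and 225 without those UMIs, and under both scalings Sp5 was called lower beside Sfrp1. The P7 to P1 ratio of Wif1 (0.61) was -0.08 with a mitochondrial limit of 10%. It turned to -0.25, that of Sfrp2 (0.47) to -0.76 and that of Apcdd1 (-0.12) to 0.27 when only clusters led by the mesenchyme list itself were counted.

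**Figure D4:**
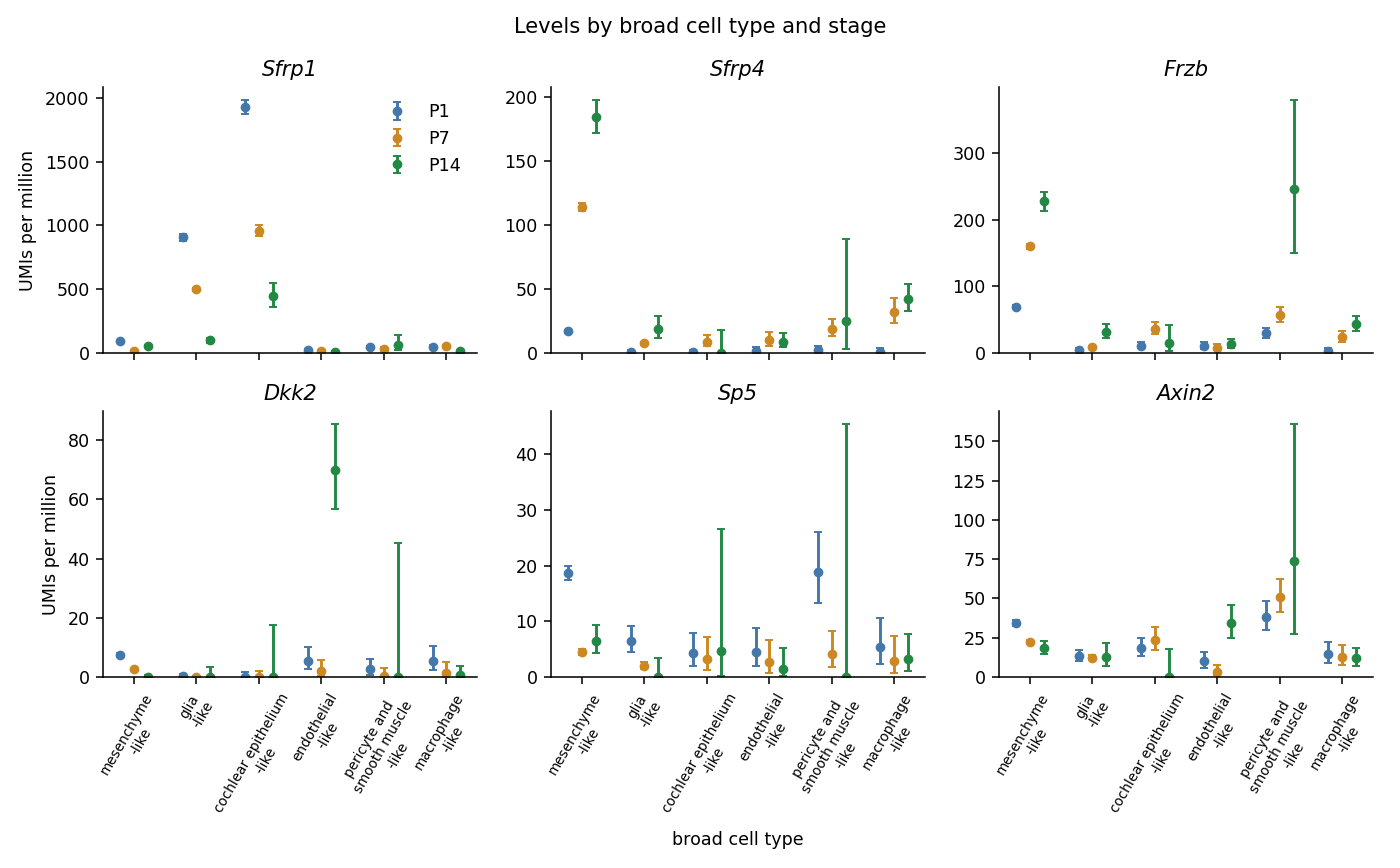
CPM of 6 genes in 6 broad cell types at P1, P7 and P14, with exact 95% counting intervals as bars and a separate axis from 0 in each panel. Sfrp1 was lower at each later stage in cochlear epithelium-like and glia-like cells (the latter from another cluster at P14), Sfrp4 and Frzb were higher at each later stage in mesenchyme-like cells, and Dkk2 stood at 70.0 CPM in endothelial-like cells of P14.

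Whether the differences between P1 and P7 were also seen inside clusters was examined in the 16 clusters with at least 50 cells at both stages. Here and in the next paragraph a gene was counted as higher or lower where its counting interval was clear of 0, without the 2-fold rule. The share of all genes so counted was not computed, so the counts of clusters have no background. Cluster 15, in which 86.5% of cells were called doublets, is among the 16. Some of the counts rest on few UMIs, such as Sfrp4 in macrophage-like cells (1 at P1 and 44 at P7) and in endothelial-like cells (3 and 15). Sfrp1 was lower at P7 in 13 of these clusters and higher in 0. Sfrp4 was higher in 14, Sfrp2 and Frzb in 11 each and Wif1 in 9, with 0, 0, 1 and 1 lower. In cluster 7, where Wif1 was highest, it went from 107 CPM (101 to 113) to 427 CPM (396 to 460), and in cluster 0 from 101 CPM (96.5 to 105) to 281 CPM (266 to 295). Frzb in cluster 7 went from 24.7 CPM (21.9 to 27.6) to 235 CPM (212 to 260), and Apcdd1 from 111 to 214 CPM in cluster 0 and from 89.3 to 165 CPM in cluster 7. In macrophage-like cells Sfrp4 also went from 0.668 to 32.0 CPM and Frzb from 2.67 to 23.2 CPM, and the part of free RNA in the within-cluster differences was not tested.

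The targets behaved differently from each other. Sp5 was lower at P7 in 8 of the 16 clusters and higher in 2, and in cluster 7 it went from 205 CPM (197 to 213) to 116 CPM (101 to 134). Axin2 was lower in 2, higher in 4 and within counting error in 10. The 2 where it was lower were cluster 15, mostly called doublets (44.6 to 28.4 CPM), and endothelial-like cluster 9, on 18 and 5 UMIs. In cluster 7 Axin2 went from 131 CPM (125 to 138) to 173 CPM (154 to 194) and in cluster 4 from 90.4 CPM (84.2 to 96.9) to 106 CPM (98.8 to 113). Within cluster 7, therefore, Axin2, Wif1, Frzb and Apcdd1 were higher and Sp5 lower at P7. Sfrp2 was also higher there (77.6 to 140 CPM) and Sfrp1 lower (35.1 to 18.1 CPM). Apcdd1 was higher in 5 clusters and lower in 4, Dkk2 higher in 1 and lower in 3 of 15, and Lgr5 within counting error in all 15.

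The levels of P7 were then weighted by the share of UMIs that each cluster had at P1, over the 18 clusters with at least 20 cells at both stages. These held 93.4% of the UMIs of P1 and 99.8% of those of P7. Over these clusters the summed targets were at 94.0 CPM at P1 and 43.1 CPM at P7, and at 86.9 CPM at P7 with the P1 make-up, so that the log2 ratio went from -1.12 to -0.11 (-0.19 to -0.03). For the summed antagonists it went from 0.15 to 0.32 (0.29 to 0.36), and lay between 0.09 and 0.30 in 5 other clusterings. For Axin2 the ratio went from -0.67 to 0.26 (0.16 to 0.35) and for Sp5 from -2.18 to -0.69 (-0.83 to -0.54). For the antagonists the same weighting gave larger differences in 4 genes. Wif1 went from 0.35 to 1.55 (1.47 to 1.62), Sfrp2 from 0.27 to 0.83 (0.75 to 0.92), Apcdd1 from -0.27 to 0.76 (0.69 to 0.84) and Sfrp1 from -0.55 to -1.18 (-1.23 to -1.13). Sfrp4 went from 2.64 to 1.72, Frzb from 1.18 to 1.06, Dkk2 from -1.34 to -1.04 and Lgr5 from 0.83 to -0.13 (-0.62 to 0.36). In 5 other clusterings the weighted ratio lay between -0.48 and 0.08 for the summed targets, between -0.05 and 0.38 for Axin2 and between -1.71 and -0.35 for Sp5, between -0.11 and 1.01 for Sfrp2, between 1.62 and 2.69 for Sfrp4, between 0.58 and 2.38 for Frzb and between -0.29 and 1.76 for Lgr5, so the sign for the summed targets, Axin2, Sfrp2 and Lgr5 depends on how the clusters are drawn. For Wif1 (0.85 to 1.59), Sfrp1 (-1.20 to -0.82) and Apcdd1 (0.27 to 0.79) it did not change sign. Clusters were drawn from genes that differ between the libraries, so make-up and stage are not independent.

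**Figure D5:**
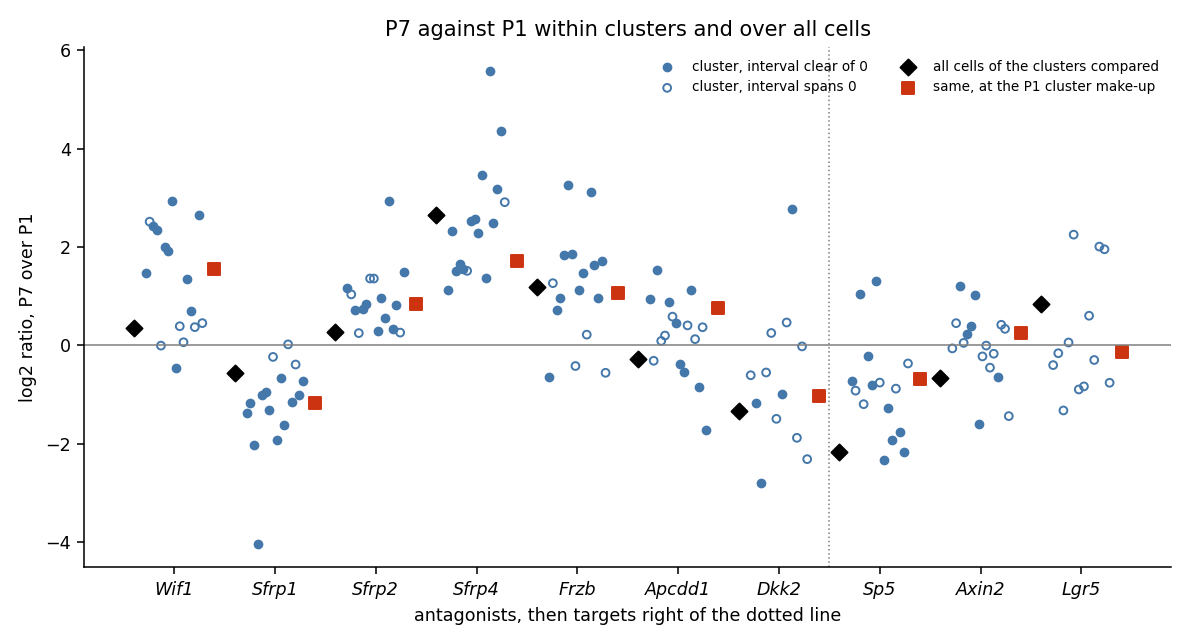
Log2 ratio of P7 over P1 for each of the 10 genes, with circles for the clusters of at least 50 cells at both stages (filled where the 95% counting interval is clear of 0), a black diamond for all cells of the 18 clusters weighted together and a red square for the same at the P1 cluster make-up. For Axin2 and Apcdd1 the diamond lies below 0 and the square above it, and for Sfrp1 both lie below 0.

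Between clusters the 10 genes fell into a few patterns. Over the 26 clusters Sp5 and Axin2 had a Pearson r of 0.91 on log2 CPM with 10 added, Sfrp1 and Lgr5 of 0.76, and Sfrp4 and Frzb of 0.73. Axin2 stood at 0.64 with Apcdd1. These are descriptions over clusters that share libraries and depth. The gene nearest to both Sp5 (r 0.89) and Axin2 (r 0.90) outside the 10 was Nkd2, an inhibitor of Dishevelled that was also left out of the clustering. The nearest gene was Id4 for Sfrp1 (0.91), Emcn for Apcdd1 (0.88), Steap4 for Sfrp4 (0.89), Agt for Frzb (0.83), Fgfr4 for Sfrp2 (0.77), Cntn4 for Wif1 (0.79), Itga5 for Dkk2 (0.80) and Atp10b for Lgr5 (0.96).

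The rest of the pathway was read from lists of genes, each counted by the same 2-fold rule over all kept cells. Of 19 Wnt ligands 4 were measured at P1 and P7, of which 2 were higher (Wnt4 and Wnt5a) and 0 lower at P7, with a median log2 ratio (10 CPM added) of 0.93, and of 5 at P7 and P14, 3 were higher (the same genes and Wnt2b) and 0 lower, with a median of 1.03. Wnt5a, a ligand mostly known for non-canonical signalling, was at 26.7, 69.9 and 278 CPM at P1, P7 and P14, Wnt4 at 6.12, 26.0 and 208 CPM and Wnt6 at 16.8, 34.8 and 44.1 CPM. All 3 were highest in cluster 13 (Ptgds, Slc7a11, Slc16a11), a mesenchyme-like cluster with 798 of its 800 cells from P14, where Wnt4 reached 740 CPM.

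Of 14 other antagonists, 8 were measured at P1 and P7, with 1 higher (Sostdc1), 0 lower and a median of 0.67, and 7 at P7 and P14, with 2 lower (Sostdc1 and Cthrc1), 0 higher and a median of -0.33. Cthrc1, a secreted protein that modifies Wnt binding, was at 198, 329 and 65.1 CPM and highest in cluster 3. Sostdc1, a secreted Lrp-binding antagonist, was at 29.9, 183 and 37.1 CPM and highest in glia-like cluster 1 at 626 CPM. Notum, an enzyme that removes the lipid of Wnt ligands and is itself a Wnt target, was at 30.8, 62.9 and 55.0 CPM and highest in cluster 20 at 543 CPM, the cluster in which Axin2 was also highest.

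Receptors and transducers came next. Of 16 receptors and co-receptors 8 were measured at P1 and P7, with 1 higher (Lrp5) and 0 lower (median 0.11), and 9 at P7 and P14, with 2 higher (Fzd4 and Fzd6) and 1 lower (Fzd2, median 0.17). Fzd2 was at 43.7, 75.5 and 22.5 CPM, Fzd1 at 43.8, 50.5 and 43.2 CPM and Ryk at 35.9, 32.1 and 19.5 CPM, and Fzd1 was highest in cluster 7 at 141 CPM. Of the 15 cytoplasmic and nuclear transducers 14 were measured at P1 and P7 and 13 at P7 and P14, and 0 were called in either direction, with medians of -0.22 and 0.18. Csnk1a1 was at 418, 275 and 265 CPM, Ctnnbip1 at 125, 136 and 66.0 CPM and Gsk3b at 78.4, 58.7 and 67.9 CPM.

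For ligand secretion both genes of the list were measured and 0 called, with medians of -0.37 and 0.27. Wls, which carries Wnt ligands to the surface, was at 78.7, 39.9 and 38.1 CPM and highest in cluster 4, and Porcn, which adds their lipid, was at 13.1, 14.7 and 27.3 CPM. Of 8 R-spondins and their receptors 7 were in the matrices and 2 were measured, 0 were called, and the medians were 0.19 and 0.24. Lgr4 was at 26.1, 18.9 and 16.7 CPM, Rspo3 at 7.35, 18.2 and 32.6 CPM and Rspo2 at 2.04, 0.602 and 0.515 CPM. Rspo2 was highest in the cochlear epithelium-like cluster at 38.0 CPM.

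Of 12 other genes used as Wnt targets, 7 were measured, with 1 higher (Bambi) and 0 lower at P7 (median 0.22) and 3 lower (Ccnd1, Tnfrsf19 and Bambi) and 0 higher at P14 (median -0.97). Bambi was at 41.7, 154 and 55.0 CPM and highest in cluster 7, Ccnd1 at 78.3, 104 and 33.2 CPM and highest in glia-like cluster 1, and Lef1 at 81.0, 88.5 and 119 CPM and highest in B cell-like cluster 25.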

How the data were processed

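Each library is 1 stage. The deposited matrices hold UMI counts per gene and barcode as the authors made them with Cell Ranger against the rat genome rn6, without normalization, and the gene symbols are those of the matrices. The submitters' processing notes name bcl2fastq, Cell Ranger and Seurat 3.1.1. The annotation version is not given in the sources used here. The 10 genes, the lists and the rules were chosen with earlier results of these data known.

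Cells were log-normalized and clustered with the 3 libraries merged in Seurat 5.3.0 (R 4.3.3), on 2000 variable genes less the listed Wnt genes, 10 principal components and resolution 0.8. A cluster took the name of the marker list with the largest mean log2 ratio to the median cluster (10 CPM added), with at least 3 markers found in 10% of its cells, a score of at least 0.5 and a lead of at least 1.5 over a list of another class (0.5 where a mesenchyme, cartilage or osteoblast list led), and with no other class ahead among the markers in its 10 leading genes. These limits were set after values were seen. Of 138 marker genes 132 were in the matrices, and of 96 Wnt genes 94. No doublets were removed. Scrublet marked 4.87%, 6.16% and 0.0379% of cells at P1, P7 and P14, so it did not work at P14. Libraries shared 53, 16 and 19 barcodes (P1 and P7, P1 and P14, P7 and P14). Kept cells held 98005495, 93080129 and 11641065 UMIs.

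Counts were summed over cells and divided by all UMIs of those cells. No test between stages was possible with 1 library each. Intervals are exact Poisson for levels, exact for ratios and Clopper-Pearson for shares at the 95% level, and those of the make-up ratios use a normal approximation. For a count of 0 the limit given is that of 3 counts. For shares of cells, each cell was thinned to 1000 UMIs. Named genes are the 10 members, the 3 most abundant genes of each Wnt list, the nearest gene to each member among genes of at least 10 CPM, and the 3 leading genes of clusters mentioned (found in 25% of their cells), which are not reported here for clusters 1 and 18. Called genes of the Wnt lists and some clusters were named after their values were seen. Alternatives were other scalings, fold limits, filters and clusterings. The ratios, their intervals and the 2-fold rule were tested on simulated counts. Clustering, naming, thinning, the make-up weighting and the search for TCF and LEF letters were not. Python 3.11.15 was used with numpy, scipy, pandas, scanpy and matplotlib.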

Additional observations from a re-analysis of the deposited data

Results flagged for a closer look

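Apcdd1 and Sp5 differed between P1 and P7 by at least 2-fold in opposite directions in different clusters, with intervals clear of 0 and at least 10 CPM at either stage. The difference between the clusters was not tested. Apcdd1 had a log2 ratio of 1.54 (1.23 to 1.84) in mesenchyme-like cluster 2, from 24.6 to 71.4 CPM, and of -1.72 (-3.16 to -0.50) in cluster 19, from 22.04 to 6.67 CPM on 29 and 7 UMIs. Sp5 had a log2 ratio of 1.32 (0.46 to 2.12) in cluster 8, on 44 and 19 UMIs, and of -2.33 (-2.83 to -1.86) in cluster 10, the dividing mesenchyme-like cells, from 47.0 to 9.38 CPM on 346 and 41 UMIs. These are the extremes in each direction.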

How the results depend on the processing

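No paired analysis was possible because each stage is 1 library and the labels give no replicate numbers. The causes of the moves below were not tested. Over all kept cells the P7 to P1 log2 ratio of summed antagonists (0.19) was 0.11 without Mt-, ribosomal protein and globin UMIs in the total, 0.12 as the mean of single cells, 0.30 with a mitochondrial limit of 10%, 0.21 without Scrublet doublets and 0.24 with Apcdd1 counted as a target. That of summed targets (-1.04) was -1.12 and -0.63 under the first and the last of these. The P14 to P7 ratio of antagonists (-0.45) was -0.86 with median-of-ratios size factors, -0.59 without Mt-, ribosomal protein and globin UMIs, -0.29 as the mean of single cells and -0.59 with Apcdd1 as a target, and that of targets (-0.11) was -0.52 with size factors, 0.03 as the mean of single cells and 0.20 with Apcdd1. The size factors differ from the UMI totals by 0.39 on the log2 scale at P14. With 1 CPM added and a minimum of 1 CPM, 2 genes were higher at P7 and 1 at P14. At 1.5-fold, and with the 10% limit, 2 were higher at P7, and at 3-fold 0 were lower at P7 and 1 at P14.

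In mesenchyme-like cells the ratio of antagonists (0.51) was 0.56 with P1 and P7 cells thinned before clustering, 0.62 with the 10% limit, 0.54 without doublets, 0.42 without Mt-, ribosomal protein and globin UMIs and 0.63 with Apcdd1 as a target. That of targets (-0.98) was -0.53 with Wnt genes kept in the clustering, -0.85 at resolution 1.2, -1.29 with thinned cells, -0.53 without doublets, -1.14 with types from the markers of each cell and -0.43 with Apcdd1. As alternatives chosen after seeing the data, the antagonist ratio was 0.19 with clusters led by the mesenchyme list alone, and with clusters 4, 7 and 20 added the ratios were 0.55 and -1.11. The number of genes highest in mesenchyme-like cells (5) was 3 with Wnt genes kept and 2 with the 10% limit. Of 56 alternative values of these sums 54 kept their sign, as did 293 of 310 values of single genes and make-up ratios. The weighted P7 ratios, also added after seeing the data, changed sign for Lgr5 too. Depth limits Lgr5, Dkk2 and most P14 values within small clusters.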
